A study of Mus musculus with 2 samples.

Results

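Brown adipose tissue (BAT) and subcutaneous adipose tissue (SAT) were compared in their CD4 T cells that carry transcripts of Cxcr6, a chemokine receptor of effector and tissue-dwelling T cells. A cell was a member when it had at least 500 genes, at least 1000 unique molecular identifiers (UMIs, counted transcripts), under 10% mitochondrial UMIs, at least 1 UMI of Trbc1 or Trbc2, none of Foxp3 or Ikzf2, which mark regulatory T cells, and at least 1 of Cxcr6. Its hashtag, an antibody barcode that marks the sample of origin, had to name a BAT or SAT sample. The gate kept 992 cells, 225 of BAT and 767 of SAT, out of 12989 cells that passed the quality filter in the whole series. The cells were thus chosen by measured counts of 5 genes (Trbc1, Trbc2, Foxp3, Ikzf2 and Cxcr6), and these genes were not tested.

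The cells came from wild-type male C57BL/6J mice, 8 weeks old, with no treatment named, and were sorted as T cell receptor beta, CD3 and CD4 positive. All fat was taken through the same kind of mechanical and collagenase II digestion and red cell lysis, per the labels. Spleen and visceral adipose tissue (VAT) were hashed into the same libraries. The 2 libraries are 2 experiments with 2 hashed samples of each tissue, so that each tissue had 4 samples, called replicates 1 and 2 (experiment 1) and 3 and 4 (experiment 2) here. The labels do not say whether hashed samples were separate animals or pools, and p-values therefore measure only the spread between these samples, which may be technical.

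CXCR6 binds CXCL16, a chemokine made as a membrane-bound and a shed form, and is carried by many memory and effector T cells of non-lymphoid organs. Naive and central memory T cells instead keep a program of recirculation, in which the transcription factor KLF2 drives S1PR1, the receptor for leaving tissue. Effector CD4 T cells of the T helper 1 (Th1) type are known for T-bet (Tbx21), interferon gamma (Ifng) and CXCR3.

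BAT held few such cells. A Cxcr6 UMI was found in 6.14%, 8.98%, 12.8% and 7.76% of the conventional (Foxp3-zero and Ikzf2-zero) T cells of BAT replicates 1 to 4, and in 60.1%, 45.6%, 30.7% and 43.4% of those of SAT. The ranges did not overlap, and the means were 8.92% ± 2.83 (SD, n = 4) in BAT and 45.0% ± 12.1 in SAT, against 36.8% (23.6 to 47.4) in VAT and 4.51% ± 1.68 in spleen. These shares describe the choice of the cells and were not tested. Per sample the members were 28, 36, 119 and 42 cells in BAT and 107, 114, 213 and 333 in SAT, at median depths of 3641 to 6491 UMIs in BAT and 4591 to 6107 in SAT. Their summed counts ran from 208084 to 491692 UMIs in BAT and from 758960 to 1771230 in SAT, so BAT values carry the larger counting error.

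The gate was also shallower in BAT. Of the members, 52.9% ± 8.23 (SD, n = 4) of BAT cells and 33.2% ± 5.35 of SAT cells had exactly 1 Cxcr6 UMI, just inside the threshold. Just outside it, with none, lay 2103 BAT and 1122 SAT conventional cells. In cells marked as naive by Dapl1 and Igfbp4 without S100a4, which should lack the receptor, a Cxcr6 UMI was found in 5 of 182 BAT cells of experiment 1 (2.75%, exact 95% interval 0.898 to 6.29) and 9 of 206 of experiment 2 (4.37%, interval 2.02 to 8.13). In SAT the counts were 1 of 30 (3.33%) and 4 of 149 (2.68%). Median depths of these naive-marked cells were 6229.5 and 4886 UMIs in BAT. That background is a larger share of the BAT frequency than of the SAT frequency, and free RNA as a source of the single UMIs was not tested.

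Effector genes marked a larger share of the SAT members than of the BAT members. A UMI of S100a4, Ccr2 or Itga1, genes of antigen-experienced T cells, was found in 73.1% ± 8.66 (SD, n = 4) of BAT members and 92.4% ± 2.92 of SAT members, against 12.2% ± 6.54 and 43.0% ± 11.4 of the Cxcr6-zero cells of the same samples. A UMI of a panel of naive T cell genes, among them Lef1, Dapl1, Igfbp4, Ccr7 and Satb1, was found in 68.7% ± 10.7 of BAT members and 47.6% ± 8.29 of SAT members. After every cell was thinned to 1000 UMIs the naive panel marked 32.1%, 44.4%, 44.5% and 38.1% of BAT members and 11.2%, 13.2%, 23.5% and 15.3% of SAT members, with no overlap. The effector panel then marked 54.7% ± 8.27 and 69.3% ± 5.28, also without overlap. Both panels were chosen after the data were seen. The naive genes named here were called higher in BAT in the test below, and Itga1 lower, so the panels are no separate support for those calls. The BAT cells are therefore called Cxcr6-positive conventional cells below, and how far their values come from naive cells with a stray Cxcr6 UMI was examined only through restricted sets of cells, whose values stand with the results they were run for. In sums over cells, fewer cells of a type and less RNA per cell cannot be told apart.

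**Figure D1:**
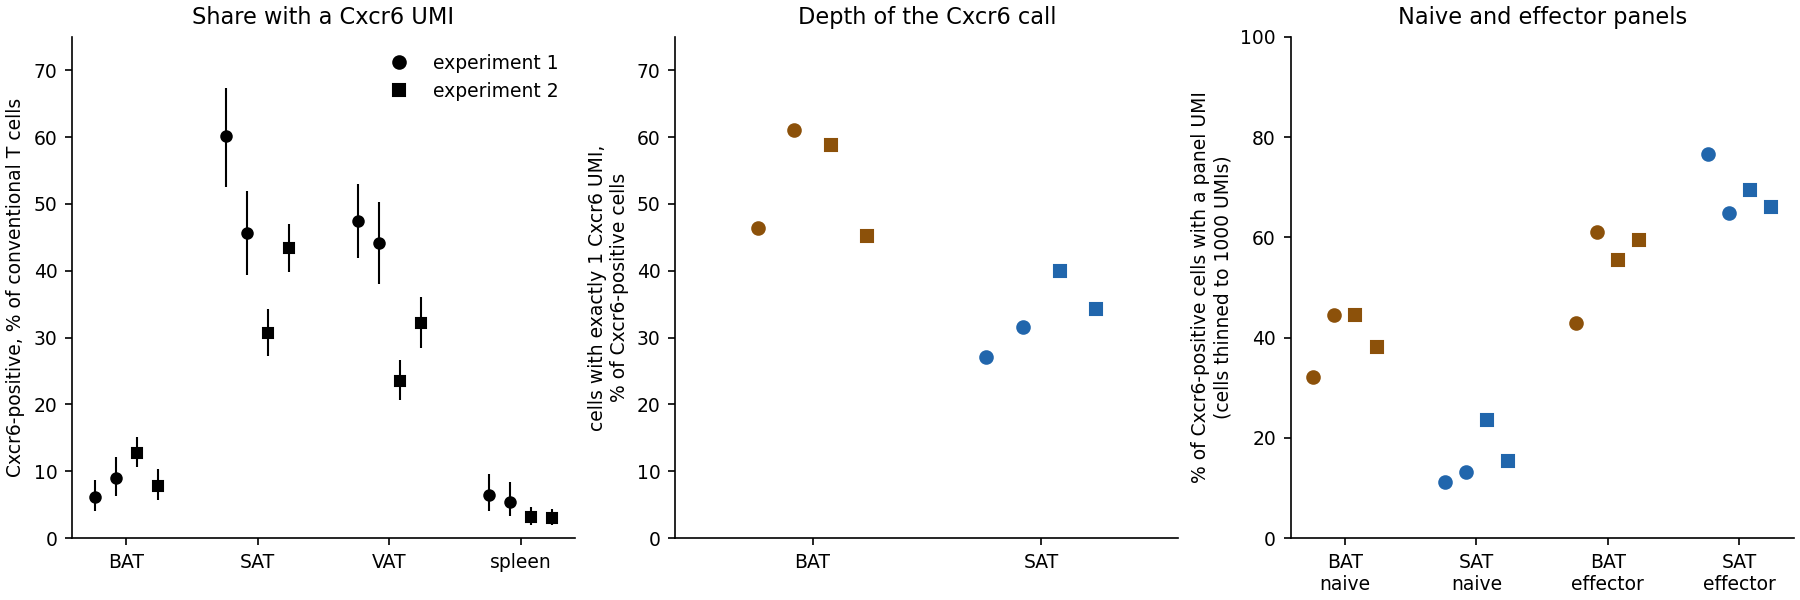
Left, the percentage of conventional T cells with a Cxcr6 UMI in each hashed sample (points, bars exact 95% binomial intervals for counting error), in BAT, SAT, VAT and spleen. Middle, the percentage of Cxcr6-positive cells with exactly 1 Cxcr6 UMI. Right, the percentage of Cxcr6-positive cells, thinned to 1000 UMIs each, with a UMI of the naive panel (Lef1, Dapl1, Igfbp4, Ccr7 and Satb1 among its genes) or the effector panel (S100a4, Ccr2, Itga1). Circles are experiment 1 and squares experiment 2. BAT lies below SAT in the Cxcr6 share and the effector panel and above it in the naive panel and in the share of 1-UMI cells.

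Tissue differences were tested with edgeR's quasi-likelihood test on UMI sums per hashed sample, with the experiment as a term. All fold changes below are of BAT over SAT on the log2 scale with a standard error. That error was derived from the test, as the absolute change divided by the square root of its F statistic. Levels are CPM, the gene's UMIs scaled to a common sum of UMIs per sample. Adjusted p-values are Benjamini-Hochberg values over the 6291 genes tested. Overlap between the tissues is described only for named genes, most of them called, and is no separate support. At adjusted p under 0.05, 83 genes (1.32%) were called, 45 higher in BAT (0.715%) and 38 lower (0.604%), and the median over all genes was 0.02. With counts scaled by library size alone the same test called 40 higher and 93 lower, and the median over all genes moved to -0.08. The count fell to 24 without BAT replicate 3, which held 119 of the 225 BAT cells, to 55, 48, 51 and 40 without BAT replicate 1, BAT replicate 2, SAT replicate 1 and SAT replicate 4, and was 153 without BAT replicate 4.

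**Figure D2:**
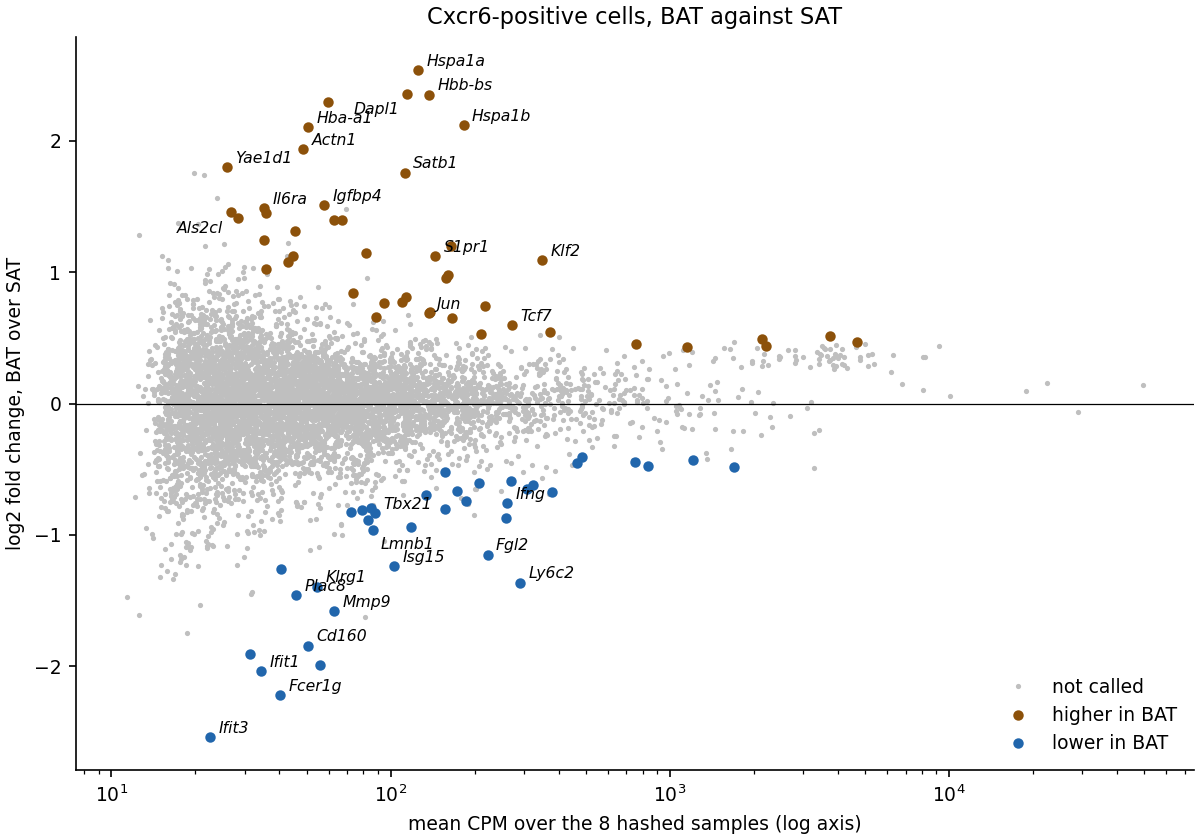
Each point is 1 of 6291 tested genes in Cxcr6-positive conventional cells. The horizontal axis is the mean CPM over the 8 hashed samples (log axis) and the vertical axis the log2 fold change of BAT over SAT, with 45 genes called higher in brown, 38 called lower in blue and the rest in grey. Hspa1a, Dapl1 and Hbb-bs lie among the highest and Ifit3, Fcer1g and Ifit1 among the lowest.

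The smallest adjusted p-value of the comparison belonged to Hspa1b, a gene of the inducible HSP70 chaperone. Hspa1a and Hspa1b are neighbouring genes on chromosome 17 that encode nearly the same protein, which binds unfolded proteins after heat or other stress and is transcribed through heat shock factors. In GENCODE vM21 (mm10) Hspa1a (ENSMUSG00000091971.3) spans chr17:34969190-34972156 and Hspa1b (ENSMUSG00000090877.3) chr17:34956436-34959238, both on the minus strand and protein-coding. The 160 bases before each start, from RefSeq on GRCm38.p6, are shown because the 2 genes moved together with a co-chaperone, Hspe1. Capitals mark GAANNTTC or TTCNNGAA, the paired units of a heat shock element, searched on both strands with overlaps kept.
Hspa1a (chr17:34972157-34972316, minus strand): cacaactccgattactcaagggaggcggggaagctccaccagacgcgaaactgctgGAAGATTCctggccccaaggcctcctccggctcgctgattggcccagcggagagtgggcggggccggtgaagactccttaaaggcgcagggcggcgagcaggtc
Hspa1b (chr17:34959239-34959398, minus strand): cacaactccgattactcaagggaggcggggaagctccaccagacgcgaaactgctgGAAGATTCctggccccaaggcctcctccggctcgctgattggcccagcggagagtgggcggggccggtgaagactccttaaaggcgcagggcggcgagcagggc
Hspe1 (chr1:55087988-55088147, plus strand): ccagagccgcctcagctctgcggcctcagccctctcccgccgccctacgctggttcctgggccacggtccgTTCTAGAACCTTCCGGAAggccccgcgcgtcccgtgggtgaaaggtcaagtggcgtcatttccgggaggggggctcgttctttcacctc
The Hspa1a and Hspa1b stretches were identical at 159 of 160 positions (99.4%), and the only match in each began 104 bases before the start. The motif was found in 12.8% of 32851 RefSeq promoters of 250 upstream bases, and a match here is a description of the letters, not of a bound site.

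Hspa1b stood at 338, 237, 275 and 322 CPM in BAT replicates 1 to 4 and at 81.7, 82.8, 57.3 and 67.2 CPM in SAT. Every BAT sample was above every SAT sample, and the change was 2.12 ± 0.14 (4.36-fold, edgeR adjusted p = 7.13e-09). Hspa1a stood at 190, 252, 297 and 91.3 CPM in BAT and at 60.6, 54.4, 22.2 and 35.6 in SAT, again without overlap. Its change was 2.54 ± 0.25 (5.81-fold, adjusted p = 2.01e-06). Because the 2 copies can share reads, their sum is the safer value.

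The sum of both was 528, 489, 571 and 413 CPM in BAT against 142, 137, 79.6 and 103 in SAT, and 136 to 328 in VAT. Spleen, which was not digested with collagenase, held 8.98 to 48.5 CPM, from 19 to 27 cells per sample. Tissue and digestion cannot be told apart there, and the part of digestion in these values was not tested. A UMI of either gene was found in 67.9%, 61.1%, 46.2% and 40.5% of BAT members and in 34.6%, 38.6%, 23.5% and 24.6% of SAT members. With cells thinned to 1000 UMIs these became 30.4% ± 5.17 (SD, n = 4) and 10.7% ± 3.50.

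Both genes were called when any 1 of the 8 samples was left out, in each experiment alone (Hspa1b 1.93 and 2.26, Hspa1a 2.08 and 2.94) and in cells with at least 2 Cxcr6 UMIs (2.30 and 2.87). They were also called among cells with an effector-panel UMI (2.24 for Hspa1b and 2.67 for Hspa1a) and among cells without any naive-panel UMI (2.71 and 3.53), the last resting on BAT replicates 3 and 4 because the others kept under 10 cells. Those last values hold BAT samples of experiment 2 only and cannot be set directly against the values of all 8 samples.

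Of the 14 tested heat shock genes, 3 rose and 0 fell, and the median was 0.42. The third was Hspe1, the mitochondrial HSP10 that caps the HSP60 chamber, at 317, 369, 464 and 586 CPM in BAT against 291, 240, 335 and 383 in SAT (0.55 ± 0.11, adjusted p = 0.0103), with overlap between the groups. Its partner Hspd1 (0.38 ± 0.15, adjusted p = 0.221) and the constitutive chaperone Hspa8 (0.09 ± 0.11, adjusted p = 0.824) did not pass. The cold-inducible RNA-binding genes Cirbp (-0.22, adjusted p = 0.733) and Rbm3 (-0.22, adjusted p = 0.578) did not pass either.

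The same samples' Cxcr6-zero conventional cells gave a yardstick. There Hspa1b averaged 180 CPM in BAT and 80.9 in SAT, and Hspa1a 132 and 77.4. Their sum stood at 382, 438, 275 and 154 CPM in BAT and 280, 137, 58.5 and 158 in SAT, with overlap. The interaction was tested for each copy alone, not for the sum, and the copies can share reads. The BAT-over-SAT change of Hspa1a was larger in the Cxcr6-positive cells by 1.50 ± 0.26 (interaction, edgeR adjusted p = 0.00442). For Hspa1b the difference of 0.69 ± 0.35 did not pass (adjusted p = 0.611), and for Hspe1 it was -0.02 ± 0.13.

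A larger group of genes higher in BAT belongs to naive and stem-like memory T cells. Of 13 tested members of that list, 7 rose and 0 fell, with a median of 0.60 against 0.02 over all genes. Lef1, Dapl1, Igfbp4 and Satb1 of this list also make up part of the naive panel described above, so the 2 are not separate observations. Satb1, a chromatin organiser of early T cells, stood at 203, 197, 126 and 163 CPM in BAT against 51.4, 48.2, 61.6 and 47.4 in SAT (1.76 ± 0.17, adjusted p = 2.01e-06), without overlap. Lef1, a partner of TCF1 in holding the undifferentiated state, stood at 241, 281, 181 and 197 CPM against 85.6, 119, 128 and 80.2 (1.20 ± 0.17, adjusted p = 0.00056), also without overlap. Tcf7, which encodes TCF1, showed a smaller change at 414, 299, 270 and 303 CPM against 221, 258, 214 and 203 (0.60 ± 0.13, adjusted p = 0.0146).

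The other 4 were Dapl1 (2.36 ± 0.41), Igfbp4 (1.51 ± 0.25), the IL-6 receptor chain Il6ra (1.49 ± 0.28) and the quiescence factor Foxp1 (0.96 ± 0.16). Dapl1 reached 427 CPM in BAT replicate 1 and 85.4 to 135 in the others, against 5.27 to 50.7 in SAT. Il6st, the signalling partner of Il6ra, was also called (1.41 ± 0.33, adjusted p = 0.0342) and is named after its value was seen. The IL-7 receptor Il7r was not called, at 358 to 435 CPM in BAT and 153 to 430 in SAT (0.52 ± 0.21, adjusted p = 0.248).

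Some genes of recirculation rose as well. In the list of egress and circulation, 4 of 10 tested genes rose, Klf2, S1pr1 and Ccr7 among them, and 1 fell. Klf2 stood at 338, 442, 641 and 428 CPM against 132, 265, 330 and 219 (1.10 ± 0.18, adjusted p = 0.00251). S1pr1 stood at 275, 201, 146 and 154 CPM against 81.7, 141, 99.2 and 58.2 (1.12 ± 0.20, adjusted p = 0.00319).

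Neither overlapped between the tissues. Ccr7, the receptor that guides T cells in lymph nodes, was called at 1.40 ± 0.34 (adjusted p = 0.0425) with overlap, at 62.5 to 118 CPM in BAT and 10.5 to 72.7 in SAT. The gene that fell was Ly6c2, a surface protein of memory and effector T cells, at 92.9, 172, 163 and 197 CPM in BAT against 366, 418, 450 and 470 in SAT (-1.36 ± 0.13, adjusted p = 2.01e-06). It was called in each experiment alone (-1.42 and -1.35) and in every restricted set of cells.

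How these genes stood in restricted cells differed by gene. With at least 2 Cxcr6 UMIs, Satb1 (1.44, adjusted p = 0.00498), Lef1 (1.09, adjusted p = 0.0042), Klf2 (1.21) and S1pr1 (1.11) were still called, and the naive list had 3 of 11 tested genes higher. Among cells with an effector-panel UMI, Klf2 (1.05, adjusted p = 0.00875) and S1pr1 (0.98) were called, while Satb1 (1.21, adjusted p = 0.0622) and Lef1 (0.81, adjusted p = 0.0839) were not. Without naive-panel cells, which left BAT replicates 3 and 4 alone, Klf2 (0.79, adjusted p = 0.485) and S1pr1 (0.55, adjusted p = 0.929) were not called. The naive list cannot be read in that set, because its cells were chosen by UMIs of its own genes.

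Klf2 lost its call without BAT replicate 3 (0.93, adjusted p = 0.0713), as did Foxp1 and Il6ra, and Tcf7 lost it without BAT replicate 1, BAT replicate 3, SAT replicate 1 or SAT replicate 4. Satb1, Lef1, S1pr1, Dapl1 and Igfbp4 kept theirs with any 1 sample left out.

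**Figure D3:**
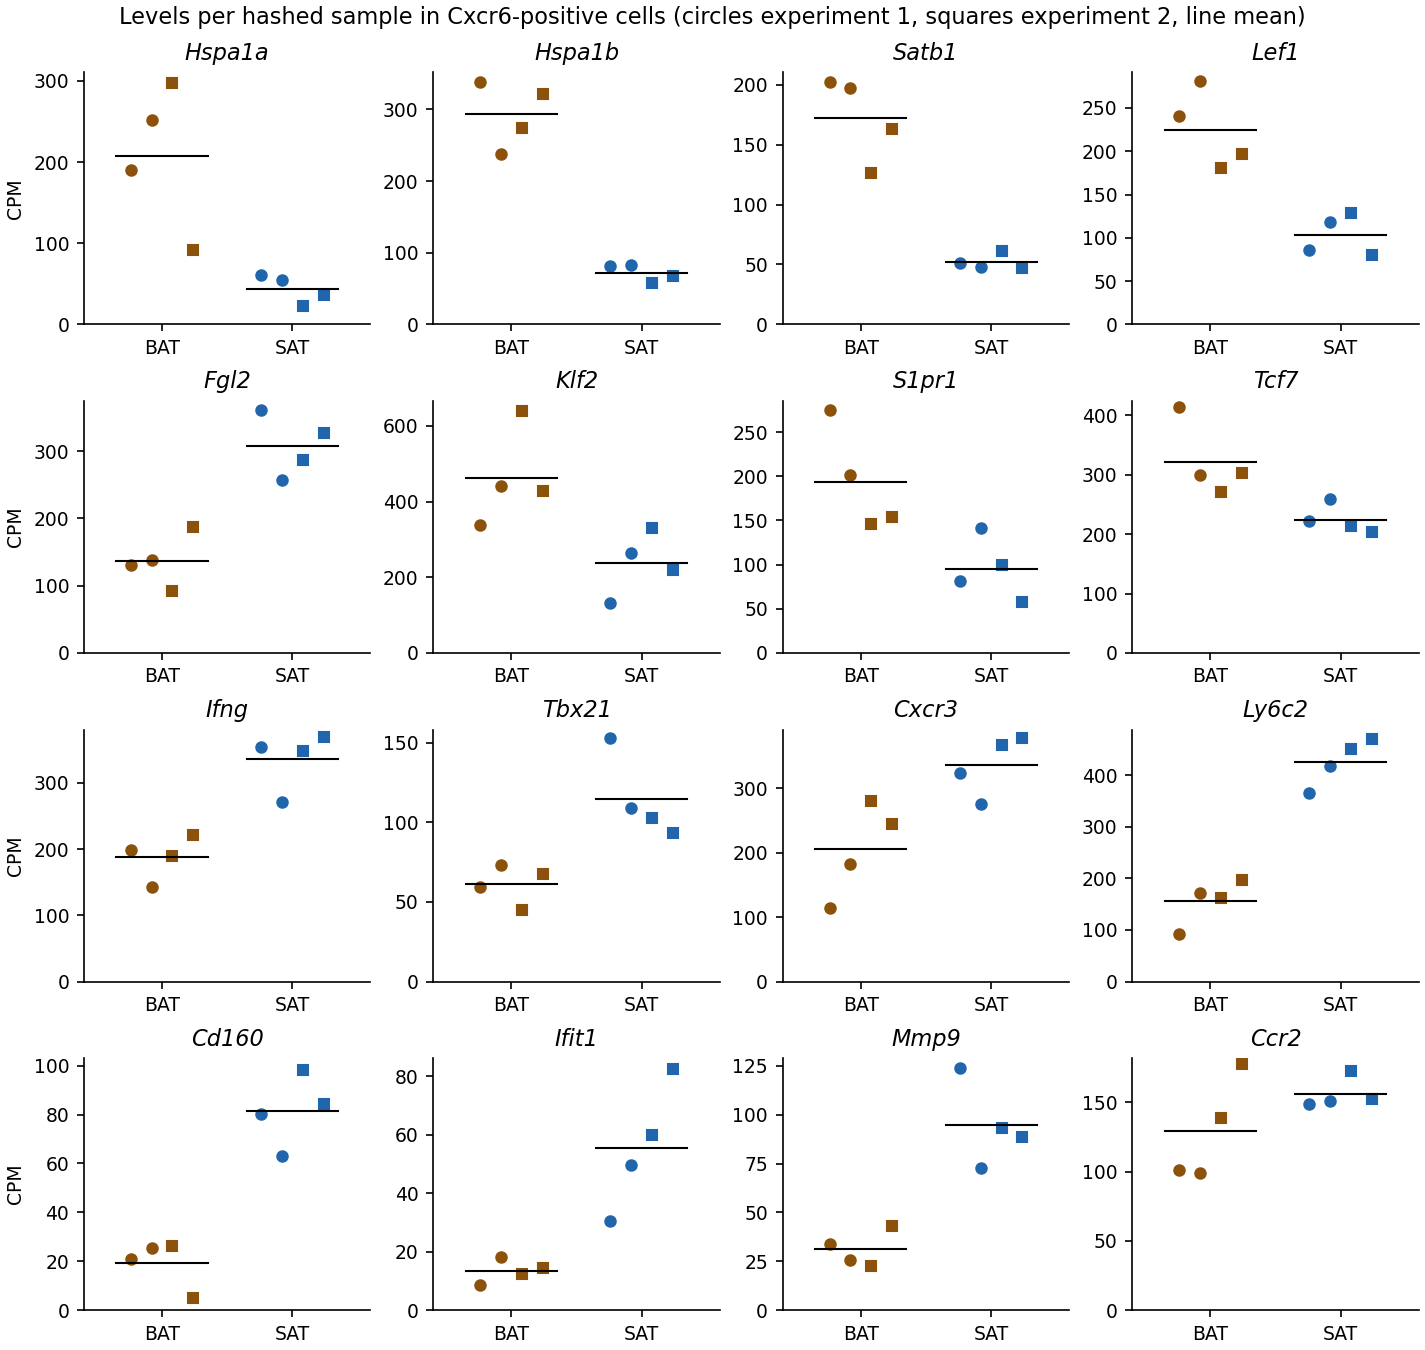
CPM of 16 genes in the Cxcr6-positive cells of each hashed sample of BAT (brown) and SAT (blue). Circles are experiment 1, squares experiment 2 and lines the mean of 4 samples, on linear axes from 0. Groups do not overlap for Hspa1a, Hspa1b, Satb1, Lef1, Fgl2, Klf2, S1pr1, Tcf7, Ifng, Tbx21, Ly6c2, Cd160, Ifit1 and Mmp9 and do for Cxcr3 and Ccr2. All genes shown except Ccr2 were called, so this says nothing of the share without overlap among all tested genes.

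A part of the Th1 genes was lower in BAT. Of 15 tested members 5 fell and 0 rose, all 15 had a negative sign and the median was -0.47. Ifng, the defining Th1 cytokine, stood at 198, 142, 189 and 221 CPM in BAT and 354, 271, 348 and 369 in SAT (-0.76 ± 0.13, adjusted p = 0.00263), without overlap. Tbx21, its main activator, stood at 59.1, 73.0, 44.7 and 67.3 CPM against 153, 109, 103 and 93.2 (-0.83 ± 0.18, adjusted p = 0.0209), also without overlap. The fitted changes correspond to 1.69-fold and 1.78-fold lower levels in BAT.

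The other 3 were Cxcr3 (-0.59 ± 0.13), Id2 (-0.47 ± 0.11), a repressor that holds effector fate, and the granule protein gene Nkg7 (-0.45 ± 0.11). Ccl5, a chemokine of activated T cells, stood at 2791.5, 2713.8, 2259.5 and 2734.5 CPM in BAT and 3424.4, 3524.0, 3811.9 and 5107.8 in SAT. Its groups did not overlap, yet the change of -0.49 ± 0.13 missed the threshold (adjusted p = 0.0558). The receptor for the inflammatory cytokine IL-18, Il18r1, gave -0.26 ± 0.28 (adjusted p = 0.78).

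Several Th1 calls depended on single samples. Without BAT replicate 3 only 1 of the 15 was called, and over the 8 fits that left out 1 sample the count ran from 1 to 6. Ifng lost its call only without BAT replicate 3 (adjusted p = 0.0552), and Tbx21 lost it without BAT replicate 1, 2 or 3 or SAT replicate 1 or 4. In cells with at least 2 Cxcr6 UMIs, 0 of 14 were called and Ifng stood at -0.48 (adjusted p = 0.181). Cxcr3, Id2 and Nkg7 kept their calls in 4, 3 and 2 of the 8 fits, with losses without BAT replicate 2, SAT replicate 1 and SAT replicate 4 for each of them. Among cells with an effector-panel UMI Ifng was called at -0.64 (adjusted p = 0.02), the only one of the list.

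Without naive-panel cells 0 of 14 Th1 genes were called, with a median of -0.28 and 3 of positive sign. Ifng then stood at -0.27 (adjusted p = 0.935), Cxcr3 at -0.29, Id2 at -0.09 and Nkg7 at -0.05, all closer to 0 than in all members, while Tbx21 stood at -0.85 (adjusted p = 0.761). That set holds only BAT replicates 3 and 4.

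Il2rb, the receptor chain for IL-2 and IL-15 on effector cells, was named after its value was seen. It stood at 317, 256, 236 and 322 CPM in BAT and 532, 519, 421 and 435 in SAT (-0.67 ± 0.12, adjusted p = 0.00269), without overlap. Klrg1, a receptor of terminal effector cells, was lower by -1.39 ± 0.27 (30.2 ± 17.0 against 78.9 ± 19.0 CPM, SD, n = 4, adjusted p = 0.00877). Fgl2, a secreted regulator made by activated T cells, was lower by -1.15 ± 0.16 (137 ± 39.4 against 308 ± 45.5 CPM, adjusted p = 0.000536). Klrg1 and Fgl2 did not overlap between the tissues, and Klrg1 lost its call without BAT replicate 2 or 3. Fgl2 was called in cells with at least 2 Cxcr6 UMIs (-0.90, adjusted p = 0.0123) and in those with an effector-panel UMI (-0.96, adjusted p = 0.0111), but stood at -0.42 (adjusted p = 0.767) without naive-panel cells. In those 3 sets Klrg1 stood at -1.01, -1.21 and -1.58 and Il2rb at -0.43, -0.52 and -0.25, with no call for either.

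Cytotoxic and NK-type genes were lower in part. Of 7 tested cytotoxic granule genes 1 fell, the cathepsin Ctsw (-0.65 ± 0.12, adjusted p = 0.0059), at 190 to 266 CPM in BAT against 289 to 469 in SAT, which lost its call without BAT replicate 3 (adjusted p = 0.0571). Granzyme B (Gzmb) gave -1.05 ± 0.29 and did not pass (adjusted p = 0.0756). Of 13 NK-type and NKT genes 6 were tested and 2 fell. Some of the 6 passed the filter on low counts through SAT, where they are high, so their median says little about the list. Cd160, a receptor of NK cells and some memory T cells, stood at 21.1, 25.6, 26.4 and 4.81 CPM in BAT and 80.4, 63.1, 98.4 and 84.1 in SAT (-1.84 ± 0.27, 3.59-fold, adjusted p = 0.000852).

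Fcer1g, a signalling adaptor of NK and innate-like T cells that myeloid cells also express, stood at 8.45 to 22.4 CPM against 14.5 to 127 (-2.22 ± 0.38, adjusted p = 0.00263), with overlap. Klrb1c, the gene of NK1.1, was at 0 in BAT replicates 1 and 4 and at most 25.6 CPM in BAT, against 14.8 to 46.2 in SAT (-1.75 ± 0.55, adjusted p = 0.115). Cells with a UMI of Klrb1c, Cd160 or Zbtb16 made up 14.3%, 16.7%, 10.1% and 4.76% of BAT members and 28.0%, 19.3%, 21.6% and 21.6% of SAT members. The tissue ranges of this share did not overlap, but with cells thinned to 1000 UMIs they did, at 3.57%, 8.33%, 4.20% and 0% in BAT (0 of 42 cells, which allows a share of up to 7.14%) and 8.41%, 7.02%, 10.3% and 6.91% in SAT. Cd160 was called in cells with at least 2 Cxcr6 UMIs (-1.90) and in those with an effector-panel UMI (-1.57), and stood at -2.35 (adjusted p = 0.0725) without naive-panel cells. Fcer1g lost its call without BAT replicate 3 (adjusted p = 0.0885), and DESeq2 called 0 genes of the list, in which 5 had an unadjusted p under 0.05 in edgeR's test.

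Of the gamma chain locus, Trgv2 and Trgc2 were lower in BAT. Trgv2 stood at 12.7, 3.65, 20.3 and 52.9 CPM in BAT and 84.3, 101, 94.1 and 77.9 in SAT (-1.99 ± 0.32, adjusted p = 0.0017). Trgc2 stood at 12.7, 10.96, 18.3 and 4.81 CPM in BAT and 29.0, 44.5, 73.6 and 58.2 in SAT (-1.91 ± 0.33, adjusted p = 0.00319). Neither overlapped, and both were named after their values were seen. Both passed the filter on low counts mainly through SAT, where they are high. In experiment 1 alone Trgv2 was called (-3.40, edgeR adjusted p = 0.0116) and Trgc2 was not (-1.51, adjusted p = 0.41). In experiment 2 alone Trgc2 was called (-2.13, adjusted p = 0.0289) and Trgv2 was not (-1.43, adjusted p = 0.0974). Without naive-panel cells Trgv2 stood at -0.84 (adjusted p = 0.818) and Trgc2 at -2.81 (adjusted p = 0.0655). Gamma locus transcripts occur in alpha-beta T cells too. A UMI of Trgv2, Trgc2, Trgc1, Trdc or Cd8a marked 11.7% ± 2.72 (SD, n = 4) of BAT members and 23.6% ± 2.88 of SAT members, and without those cells 40 genes were called in place of 83. This set of genes includes the called Trgv2 and Trgc2 and was chosen after the data were seen. In the planned list of CD8 and gamma-delta markers 0 genes were tested. Its members in the files, Cd8a, Cd8b1 and Trdc, summed to 0 to 135 CPM in BAT and 9.60 to 61.9 in SAT, with overlap.

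Among interferon-response genes, 3 were lower in BAT. They were Ifit1, Ifit3 and Isg15, of 13 tested type I interferon genes, and 0 rose. The 160 bases before the starts of these 3, from RefSeq on GRCm38.p6, show in capitals GAAANNGAAA or TTTCNNTTTC, the core of the interferon-stimulated response element.
Ifit1 (chr19:34640729-34640888, plus strand): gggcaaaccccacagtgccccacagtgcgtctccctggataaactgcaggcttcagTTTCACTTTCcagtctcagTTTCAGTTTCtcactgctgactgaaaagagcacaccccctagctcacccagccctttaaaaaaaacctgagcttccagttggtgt
Ifit3 (chr19:34583369-34583528, plus strand): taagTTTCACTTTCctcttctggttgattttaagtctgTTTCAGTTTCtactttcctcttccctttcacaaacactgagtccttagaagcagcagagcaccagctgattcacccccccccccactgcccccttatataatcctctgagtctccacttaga
Isg15 (chr4:156200819-156200978, minus strand): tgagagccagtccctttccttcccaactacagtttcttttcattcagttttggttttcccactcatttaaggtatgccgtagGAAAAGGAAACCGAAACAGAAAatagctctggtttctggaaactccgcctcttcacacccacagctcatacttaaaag
That motif was found in 2.98% of 32851 RefSeq promoters of 250 upstream bases, on either strand and with overlaps kept. Each of the 3 stretches held at least 2 matches, which is a description of the letters.

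Ifit1, which binds foreign RNA ends, stood at 8.45, 18.3, 12.2 and 14.4 CPM in BAT and 30.3, 49.5, 59.9 and 82.4 in SAT (-2.04 ± 0.34, adjusted p = 0.00251). Ifit3, its partner, stood at 4.22, 0, 8.14 and 14.4 CPM against 26.4, 24.7, 33.4 and 68.9 (-2.54 ± 0.48, adjusted p = 0.00637). Isg15, a ubiquitin-like modifier, stood at 84.5, 25.6, 67.1 and 57.7 CPM against 178, 100.2, 118 and 194 (-1.24 ± 0.26, adjusted p = 0.0154). The groups did not overlap for any of them.

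Ifit1 rests on 2, 5, 6 and 3 UMIs in BAT and Ifit3 on 1, 0, 4 and 3, and both passed the filter on low counts mainly through SAT. At a minimum count of 20, 8 genes of the list were tested and 1 was called, Isg15 (-1.24, adjusted p = 0.0205). Ifit1 and Ifit3 were called in cells with at least 2 Cxcr6 UMIs (-2.38 and -2.43) and in those with an effector-panel UMI (-2.35 and -2.46). Isg15 was called in neither (-0.99 and -0.98), and 0 of 12 tested genes were called without naive-panel cells.

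Without BAT replicate 3 none of the 13 was called (Ifit1 adjusted p = 0.101, Ifit3 0.144, Isg15 0.125). Isg15 also lost its call without BAT replicate 2 or SAT replicate 4, and DESeq2 called 1 of the 13. The interferon-inducible GTPases, a list of mostly interferon gamma targets, had 0 of 13 called by edgeR or DESeq2, and 7 with an unadjusted p under 0.05. Ifit1 was not called differently between Cxcr6-positive and Cxcr6-zero cells (interaction -0.46 ± 0.64, adjusted p = 0.951), whose means were 11.7 CPM in BAT and 41.8 in SAT.

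**Figure D4:**
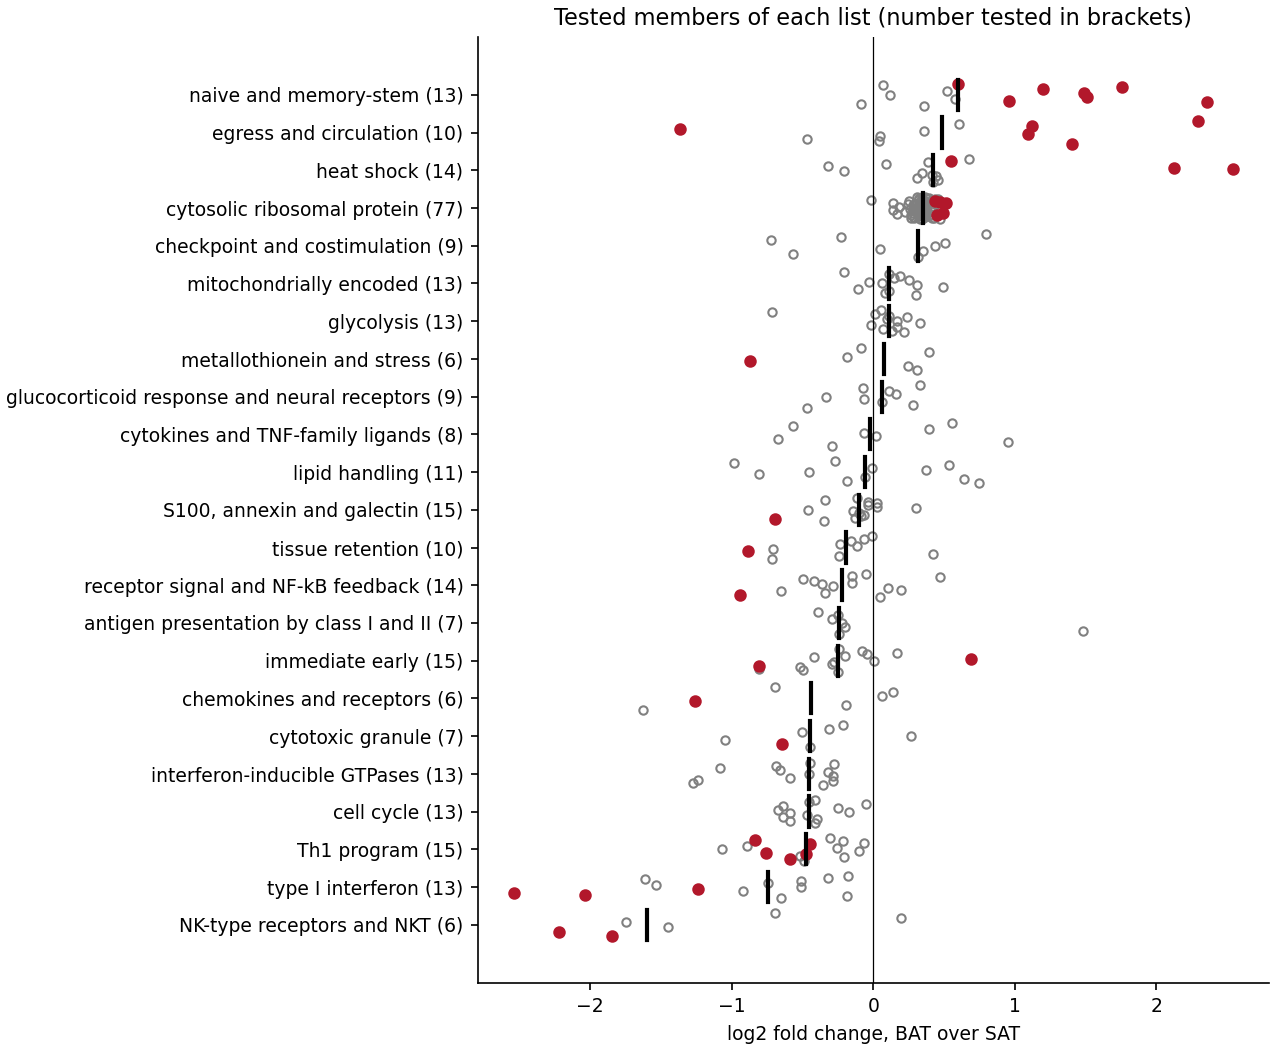
Each row is a gene list and each circle a tested member, placed by its log2 fold change of BAT over SAT, with filled red circles for called genes and black bars for the list median. The naive, egress and heat shock lists have medians of 0.60, 0.48 and 0.42, and the Th1 list has a median of -0.47. The medians of the type I interferon (-0.75) and NK-type (-1.60) rows include genes of very few UMIs in BAT that were tested mainly through SAT. The vertical position within a row carries no meaning.

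Few genes of residence and activation passed the test. Of 10 tested tissue retention genes 1 fell, Itga1 (the integrin alpha 1 chain that binds collagen), at 54.9, 47.5, 38.6 and 91.3 CPM in BAT against 132, 108, 89.0 and 103 in SAT (-0.89 ± 0.21, adjusted p = 0.0324). It lost its call when any of 5 samples was left out, BAT replicates 1 to 3 and SAT replicates 1 and 4. Cd69, which blocks egress through S1PR1, gave -0.25 ± 0.12 (adjusted p = 0.416) at 152 to 226 CPM in BAT and 204 to 271 in SAT. The monocyte chemokine receptor gene Ccr2 gave -0.19 ± 0.14 (adjusted p = 0.645).

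Itgae, the CD103 integrin, was too low to test at no more than 3.65 CPM in any sample. Gata3 (-0.10 ± 0.16), Rora (0.01 ± 0.20) and Tmem176b (0.71 ± 0.37) were not called, and Il1rl1 was too low to test. Of 15 tested immediate early genes 1 rose, Jun (0.69 ± 0.15, adjusted p = 0.0219), and 1 fell, Fosb (-0.81 ± 0.16, adjusted p = 0.0121). Fos stood at 296, 303, 362 and 245 CPM in BAT and 412, 613, 432 and 447 in SAT and missed the threshold (-0.52 ± 0.14, adjusted p = 0.0728). Jun and Fosb, members of 1 transcription factor complex, AP-1, were thus called on opposite sides of 0. The list as a whole was mostly lower in BAT: 12 of the 15 had a negative sign and the median was -0.25. An unadjusted p under 0.05 in edgeR's test was found for 8, of which 7 were lower. Scaling by library size alone called 0 higher and 5 lower in this list. Jun lost its call without BAT replicate 2 or 3 or SAT replicate 1 or 4, and Fosb without BAT replicate 2 or 3.

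Further single genes were among those with the largest falls. Mmp9, a gelatinase, stood at 33.8, 25.6, 22.4 and 43.3 CPM in BAT and 124, 73.0, 93.2 and 88.6 in SAT (-1.58 ± 0.25, adjusted p = 0.00151), without overlap and called with any 1 sample left out. It was called in cells with at least 2 Cxcr6 UMIs (-1.42) and in those with an effector-panel UMI (-1.39), and stood at -1.35 (adjusted p = 0.592) without naive-panel cells. Plac8 (-1.46 ± 0.35), the nuclear lamina gene Lmnb1 (-0.96 ± 0.21) and the phosphatase gene Dusp5 (-0.94 ± 0.21) overlapped between tissues and kept their calls in 2, 5 and 2 of the 8 fits that left out 1 sample. The stress-induced Gadd45b gave -0.87 ± 0.17 (adjusted p = 0.00877) and the phospholipid-binding Anxa1 gave -0.70 ± 0.16 (adjusted p = 0.0336). Among the largest rises outside the lists were the cytoskeletal Actn1 (1.94 ± 0.42), Yae1d1 (1.80 ± 0.35) and Als2cl (1.46 ± 0.29), which kept their calls in 3, 6 and 6 of those fits. Gadd45b was not called without BAT replicate 2 or 3, and Anxa1 was called in 2 of the 8. Actn1, Yae1d1 and Als2cl passed the filter on low counts mainly through BAT, where they are high. Actn1 stood at 3.58 in experiment 1 alone and at 0.63 (edgeR adjusted p = 0.707) in experiment 2 alone.

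Cytosolic ribosomal protein genes formed a narrow band above 0. Of 77 tested, 5 rose and 0 fell, 76 had a positive sign and the median was 0.35, or 0.25 with counts scaled by library size alone. Rps19 stood at 4404.8, 3849.6, 4673.7 and 4123.3 CPM in BAT and 2593.0, 3014.5, 3892.3 and 3411.8 in SAT (0.51 ± 0.12, adjusted p = 0.0295). The other 4 were Rpl28 (0.49 ± 0.11), Rps20 (0.47 ± 0.12), Rpl22l1 (0.45 ± 0.11) and Rps26 (0.44 ± 0.10). An unadjusted p under 0.05 was found for 70 of the 77, DESeq2 called 40 and the fit of all 4 tissues 46. Leaving out 1 sample gave from 0 to 44 calls in the list, and without naive-panel cells the median was -0.03 with 31 of 77 positive.

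Lists of metabolism gave no calls in edgeR's test. In lipid handling 0 of 11 tested genes passed (median -0.06, 4 with an unadjusted p under 0.05), in glycolysis 0 of 13 (median 0.11, 1 unadjusted) and among mitochondrially encoded genes 0 of 13 (median 0.11, 1 unadjusted). DESeq2 called 0, 0 and 1 of them. The cell cycle list had 0 of 13 called by edgeR or DESeq2 (2 unadjusted) with all 13 negative (median -0.46), and Mki67, a marker of dividing cells, ran from 4.81 to 152 CPM in BAT and from 61.5 to 269 in SAT. In cells with at least 2 Cxcr6 UMIs 4 of 11 cell cycle genes were called lower (median -1.25), and Mki67 was called there (-1.78, adjusted p = 0.0494). Without naive-panel cells 1 of 13 was called lower. Fewer dividing cells in some BAT samples and less cell cycle RNA per cell cannot be told apart.

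Markers of other cells were checked in the same sums. Erythroid genes summed to 14.4 to 1304 CPM in BAT and 90.7 to 116 in SAT, and the calls for Hbb-bs (2.35 ± 0.56) and Hba-a1 (2.10 ± 0.51) rested on BAT replicate 3 alone, at 750 and 256 CPM. Without that sample they were -0.32 and -0.25. Of the adipocyte list 6 of 10 genes, with Ucp1 among them, were at 0 in every sample, and its sum was at most 40.2 CPM in BAT and 79.1 in SAT. B cell genes summed to 212 to 435 CPM in BAT and 132 to 166 in SAT. Within it Ighm (0.98 ± 0.17, adjusted p = 0.00358) stood at 157 to 236 CPM in BAT and 71.2 to 140 in SAT, and the Cxcr6-zero T cells held means of 235 and 154 CPM. Treg genes summed to 131 to 313 CPM in BAT and 112 to 199 in SAT, and of 4 tested 0 were called by edgeR or DESeq2, with 2 at an unadjusted p under 0.05 and a median of 0.59. Myeloid genes summed to 131 to 221 CPM against 146 to 270, with 1 of 2 tested called, Fcer1g, and S100a8 and S100a9 at 0. Endothelial genes summed to 19.2 to 69.4 CPM against 22.2 to 45.7, with 0 of 1 called by edgeR or DESeq2 (1 unadjusted). Of 8 CD4 T cell identity genes 0 were called by edgeR or DESeq2, with 2 at an unadjusted p under 0.05. The part of these transcripts in the other results was not tested beyond the values given.

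**Figure D5:**
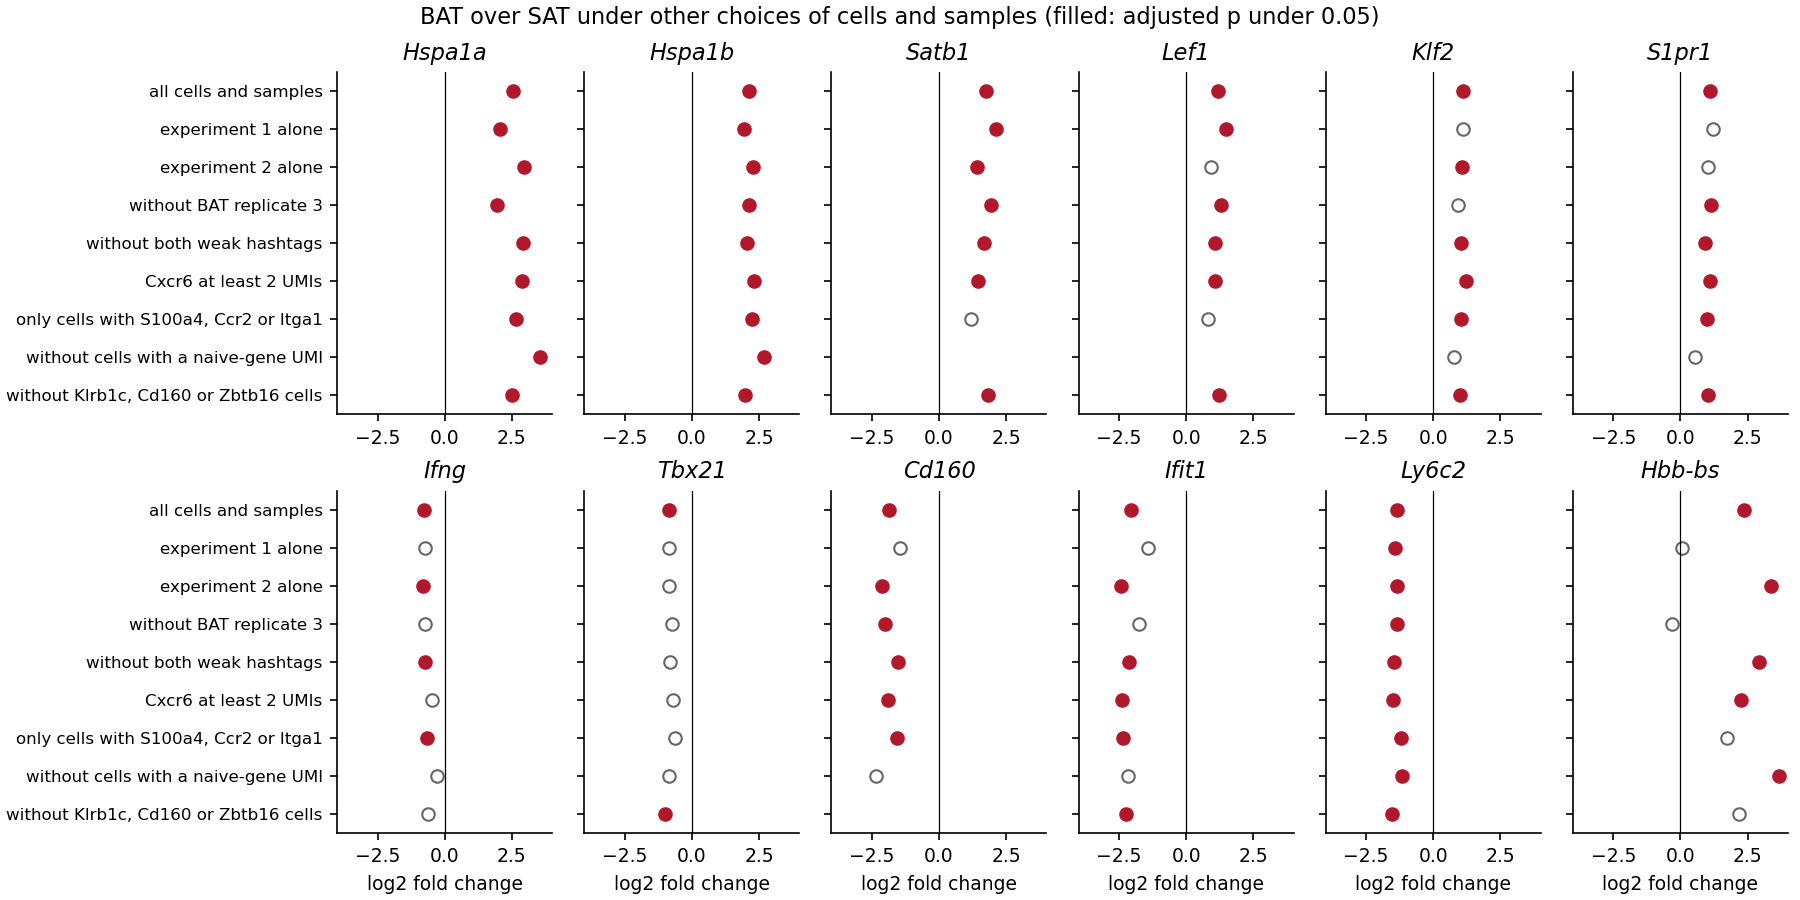
Log2 fold change of BAT over SAT for 12 genes with all cells and samples and under 8 other choices of cells or samples (rows), with filled red points where edgeR's adjusted p was under 0.05 and open points where it was not. A missing point means that the gene was not tested there. Hspa1a, Hspa1b and Ly6c2 are filled in every row, and Hbb-bs falls to -0.32 without BAT replicate 3.

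Effector genes also differed between the tissues among Cxcr6-zero cells. The difference between the 2 BAT-over-SAT changes, Cxcr6-positive minus Cxcr6-zero, was tested with the hashed sample as a block, and 94 of 8420 genes were called with a positive difference (1.12%) and 0 with a negative one, where 206 had an unadjusted p under 0.05. Ifng averaged 13.9 CPM in Cxcr6-zero cells of BAT and 131 in those of SAT, and its difference was 2.19 ± 0.36 (adjusted p = 0.00238). For Tbx21 (2.15 ± 0.46, adjusted p = 0.0237), Ccl5 (2.11 ± 0.30, adjusted p = 0.000795), Nkg7 (1.77 ± 0.30), Cxcr3 (1.77 ± 0.28) and Id2 (1.73 ± 0.21) it was also positive. The tissue gap in these Th1 genes was thus smaller within the Cxcr6-positive cells than within the rest, and 7 of the 15 Th1 genes were called this way. The makeup of the Cxcr6-zero cells also differed, with the effector panel in 12.2% of those of BAT and 43.0% of those of SAT.

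For naive and egress genes a positive difference meant a wider gap within the Cxcr6-positive cells. Klf2 averaged 801 CPM in Cxcr6-zero cells of BAT and 820 in those of SAT, and its difference was 1.01 ± 0.15 (adjusted p = 0.000795). Igfbp4 (1.36 ± 0.24, adjusted p = 0.00457), Il6ra (1.15 ± 0.25), S1pr1 (0.82 ± 0.17) and Satb1 (0.82 ± 0.18) followed. Lef1 (0.36 ± 0.16, adjusted p = 0.532) and Tcf7 (0.39 ± 0.15, adjusted p = 0.375) did not pass. The count of 94 ran from 49 to 123 when 1 sample was left out, with 56 without BAT replicate 1, 58 without BAT replicate 2 and 49 without SAT replicate 4.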

How the data were processed

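CD4 T cells of BAT, SAT, VAT and spleen were hashed, pooled and run as 2 libraries of 10x 3' v3 chemistry, 1 per experiment, per the labels. The authors deposited raw UMI counts per gene and hashtag for each cell barcode, written by Cell Ranger 6.1.0 per the file headers. The submitters' processing notes name the build mm10, bcl2fastq and Seurat. Their settings are not stated there. The files number the hashtags as the labels do, and a tag was matched to its sample by that number. Libraries held 4485 and 12239 barcodes with 29153747 and 43879975 gene UMIs, and 3985 and 9004 cells passed the filter. The submitters' doublet treatment is not given, and no caller was run here. Doublets of 2 samples were limited by the hashtag rule.

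For each hashtag the count plus 1 was divided by its median over kept cells, and the top tag was taken when at least 2 times the second. It placed 598 of 781 and 1152 of 1377 Cxcr6-positive conventional cells. The 2 libraries shared 20 barcodes, 0 of them among Cxcr6-positive cells. Among the BAT and SAT samples the hashtags of SAT replicate 1 and BAT replicate 4 separated least, with median ratios of 2.51 and 4.54. Replicates of the same tissue and experiment differed more than independent draws of UMIs would, with chi-square to degrees of freedom ratios of 1.74 to 2.31. UMIs of a cell are not independent, so this does not show a difference beyond the sampling of cells. No replicates were merged.

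Raw UMIs were summed per hashed sample with at least 10 cells and tested with edgeR 4.0.16 in R 4.3.3 (quasi-likelihood test, experiment as a term, TMM scaling, Benjamini-Hochberg adjustment, genes kept by filterByExpr at minimum count 10). The interaction used the hashed sample as a block. On simulated counts with 200 changed genes among 6291, the main test recovered 75% of 2-fold and 100% of 4-fold changes with 3.31% false calls. The changed genes were drawn from those with a mean of at least 10 UMIs per sample. Each gene's spread was set by its level alone, and the experiments did not differ. These rates therefore hold for that setting, and do not cover genes of fewer UMIs or the real differences between samples. Alternatives covered scaling, filtering, DESeq2 1.42.0, hashtag and Cxcr6 thresholds, subsets of cells and left-out samples.

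Genes were named by rule: the 12 largest called changes in each direction without T cell receptor variable and unnamed genes, the 4 called genes of each list with the smallest p, a fixed set of T cell genes, and the 5 largest interactions. Some genes that the rule selects are not reported here. The members and the lists were chosen with earlier results of these data known. Gene coordinates came from GENCODE vM21 and promoter sequences from RefSeq on GRCm38.p6. CPM were computed from the deposited counts and each sum's total. Intervals and shares cover counting error only.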

Additional observations from a re-analysis of the deposited data

Results flagged for a closer look

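Some values stood far from the other 3 of their group of 4 hashed samples by Dixon's criterion, which chance meets in about 1 of 20 groups. Of 134 groups looked at, 8 did. In BAT they were the lowest Ccl5 value (2259.5 CPM, replicate 3), the highest Cenpe (88.7 CPM), Dapl1 (427 CPM) and Hbb-bs (750.5 CPM), and the highest H3c3 (91.3 CPM). In SAT they were the highest Ccr2 (173 CPM), Fos (613 CPM) and Itgae (1.71 CPM), the last from 2 UMIs. Cenpe and H3c3 are genes of dividing cells, and their high values came from BAT replicate 1 and BAT replicate 2.

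The BAT-over-SAT change differed between Cxcr6-positive and Cxcr6-zero cells for 21 of the 64 named genes, each with a positive log2 difference by edgeR's interaction test. Over all 8420 genes of that test 94 (1.12%) were called with a positive difference and 0 with a negative one. The common sign is therefore not particular to the named genes, and many of these were named because a test of these data called them. Among effector genes it was 2.19 for Ifng, 2.15 for Tbx21, 2.16 for Anxa1, 2.11 for Ccl5, 1.77 for Cxcr3, 1.77 for Nkg7, 1.77 for Ly6c2, 1.73 for Id2, 1.57 for Rora and 1.38 for Ccr2. Among naive and egress genes it was 1.36 for Igfbp4, 1.15 for Il6ra, 1.01 for Klf2, 0.82 for S1pr1 and 0.82 for Satb1, and it was 1.50 for Hspa1a. Hspa1b, which can share reads with Hspa1a, was not called there (0.69). The largest, named because this interaction called them, were Esco2 (5.43), Lilr4b (4.06), Cenpe (3.73), Nusap1 (3.49) and H3c3 (3.47). Esco2, Cenpe, Nusap1 and H3c3 belong to dividing cells, and their Cxcr6-zero means in BAT were 0, 1.06, 0.595 and 0.854 CPM against 9.75, 15.5, 17.2 and 28.3 in SAT. With Esco2 at 0 there, its fitted difference depends on the prior count and is no bound.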

How the results depend on the processing

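Beside 83 calls, edgeR gave 133 with counts scaled by library size only, 252 with no filter on low counts, 182 with all 4 tissues in 1 fit, 54 with cells thinned to 1000 UMIs, 13 in experiment 1 alone and 26 in experiment 2 alone. Without cells with a Klrb1c, Cd160 or Zbtb16 UMI there were 29, without Il2ra or Ctla4 cells 39, without cells with 2 UMIs of other cell types 11, and, chosen after seeing the data, without gamma-delta or Cd8a cells 40, among effector-panel cells only 20 and without naive-panel cells 6. The cause of these moves was not tested, but several of these sets hold fewer cells, samples or tested genes. Leaving out 1 sample gave 24 to 153 calls, and 49 to 123 for the interaction, which had 16 calls with thinned cells. Counts within 1.5 times of the first were 81 with DESeq2 size factors, 91 with a minimum count of 20, 57 at 2 Cxcr6 UMIs, 65 and 94 with stricter or other hashtag rules, 89 without both weak hashtags and 112 with DESeq2. They hold different genes in part: 28 of the 83 were among the calls at 2 Cxcr6 UMIs and 57 among those of DESeq2. A fit with the replicate number as a block gave 71. Same-numbered deviations correlated at -0.01 and 0.08 over the tested genes. Counting noise in the small BAT sums also lowers such a correlation, so whether the numbers pair the samples is not known. The block fit is given only as an alternative. Leaving out 1 sample gave -0.32 to 2.75 for Hbb-bs and -0.25 to 2.55 for Hba-a1, both lowest without BAT replicate 3. They turned to -0.065 and -0.16 with the 75th percentile in the hashtag rule, and Dusp5 to 0.14 without naive-panel cells. Of 45 called genes named, 42 kept their sign in every alternative that tested them, 13 were called in all 8 fits that left out 1 sample, and Hspa1a, Hspa1b and Ly6c2 were called in every alternative that tested them. BAT sums of 28 to 119 cells limit what could be detected for genes of low level.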

Other observations

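Rgs10, a brake on G-protein signalling, stood at 97.1, 113, 91.5 and 81.7 CPM in BAT and 25.0, 33.4, 53.9 and 39.5 in SAT (1.40 ± 0.22, edgeR adjusted p = 0.00155), without overlap, and was chosen after its values were seen. In experiment 1 alone it was 1.97 (adjusted p = 0.0159) and in experiment 2 alone 1.00 (adjusted p = 0.131). Rgs10 was called in cells with at least 2 Cxcr6 UMIs (1.11, adjusted p = 0.0456) and in those with an effector-panel UMI (1.26, adjusted p = 0.014). Without naive-panel cells, which left BAT replicates 3 and 4 alone, it stood at 0.54 (adjusted p = 0.948). Tnfrsf4, the co-stimulatory receptor OX40, gave 0.79 ± 0.31 and did not pass (adjusted p = 0.247). Ctla4 gave 0.43 ± 0.30 (adjusted p = 0.616).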
